A study of Mus musculus with 2 samples.

Results

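The genes described here are those of the ATF4 response and of the amino acid metabolism it serves, 35 in all: transcription factors of the response, their feedback and stress effectors, enzymes of serine, one-carbon and other amino acid pathways, and amino acid transporters. The rule takes them by name and uses no measured value: every probe set annotated to exactly 1 of these 35 symbols. This gave 79 of the 34945 probe sets that name 1 gene, for 34 of the 18193 genes on the array. Pycr1, an enzyme of proline synthesis, has no probe set that names it alone in the annotation used, so its signal is not analysed here and only its promoter is. The series held 2 arrays. One held RNA of mouse T cells after exposure to RPE, that is, to retinal pigment epithelium in primary culture (a pigmented sheet that underlies the photoreceptors), and the other RNA of control T cells titled as CD4 cells. Both came from male animals of C57 BL/6 background aged 6 weeks, and no genetic alteration is named for either. How long or at what ratio the cells met the epithelium, and how the T cells were stimulated, is not given in the sources used here, and the tissue field of the exposed sample names the epithelium in place of the T cells. The question was how this epithelium acts on helper T cells that make interleukin-17.

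ATF4 is a transcription factor whose messenger RNA is translated when the initiation factor eIF2 is phosphorylated, as happens when amino acids run short or unfolded protein builds up in the endoplasmic reticulum. With C/EBP family partners it switches on genes that import amino acids, make serine, glycine and asparagine, charge one-carbon units onto folate, and restrain the growth kinase complex mTORC1. T cells draw on the same transporters and enzymes when antigen drives them to grow, since proliferation needs leucine, glutamine and serine. Because ATF4 protein is set largely at translation, the level of its messenger RNA does not by itself report its activity.

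With 1 array a group there was no spread between samples and no test, and each value below stands for a single array. Signals are linear intensities as deposited. Signals under the median of their array (16 exposed, 15.9 control), called the floor, were raised to it, and differences are log2 signal in RPE-exposed minus control T cells. A gene is represented by its brightest probe set. Probe sets of 1 gene disagreed in their log2 difference with a pooled SD of 0.24, over 4779 genes with at least 2 of them at or over both floors. The SD was 0.32 for genes with a mean signal under 100, 0.24 from 100 to 500 and 0.20 at 500 or more. The pooled value is thus too small for the dim members. These values describe disagreement between probe sets, not between cultures. Of 9 T-cell markers measured, 8 were above both floors, and Tcra was under both. Of the 8, 4 were lower in the exposed sample, among them Cd3e (763.9 in exposed, 770.9 in control T cells) and Cd4 (271.1 and 287.0). The other 4 were higher, among them Cd3d (3505.9 and 3073.4), Cd3g (1756.7 and 1520.2) and Cd28 (2319.2 and 1658.9). The Cd28 difference of 0.48 lay outside the range of -0.19 to 0.28 that held most genes of its level. Summed T-cell marker signals were 13479.7 in exposed and 12314.6 in control T cells, so they were not equal. Of 14 RPE markers 11 were under the floor on both arrays, and the other 3, Mitf, Pmel and Rdh5, reached it on 1 array each with signals of at most 18.3. B-cell markers were lower in the exposed sample in 8 of 9, with summed signals of 1404.6 in exposed and 2156.1 in control T cells. Macrophage and dendritic-cell markers were lower in 9 of the 12 above the floor on at least 1 array, with sums of 2126.8 and 3047.0 over all 13. These sums mostly follow the MHC class II genes H2-Aa (1080.8 in exposed, 1437.6 in control T cells), H2-Eb1 (457.1 and 707.7) and H2-Ab1 (312.8 and 481.7). Apart from Cd86 (105.3 and 200.9), the other markers had signals of at most 44.4. Among those dim markers Csf1r, Adgre1 and Fcgr1 were higher in exposed T cells, so the sums do not describe them. Summed signals of NK-cell (743.1 and 754.5), granulocyte (37.8 and 32.5) and erythroid and platelet markers (136.0 and 116.3) lay closer together. The part of these cells in the values below was not tested. In such bulk samples fewer cells of a type and less RNA per cell cannot be told apart.

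Most of the ATF4 programme had nearly the same signal on both arrays, and Bcat1 was the clearest exception. Both arrays gave a signal over the floor for 28 of the 34 genes, 1 array for 4, and neither for 2. Of the 28, 26 were within 1.5-fold. Bcat1 and Chac1 were at least 1.5-fold higher in RPE-exposed T cells, none of the 28 was 1.5-fold lower, and none was 2-fold different in either direction. The 4 genes over 1 floor have bounds, none of which reached 1.5-fold, so their true differences may be larger. Over all 11015 genes compared, bounds included, 3.11% passed 1.5-fold upward and 3.81% downward, and 0.436% passed 2-fold upward and 0.626% downward. With 2 of the 32 members compared (6.25%) past 1.5-fold upward, the count is too small to be a result about the group. The median difference of the 28 members was 0.0013, with 14 positive and 14 negative, beside -0.011 over the 10011 genes above both floors, with 4788 positive and 5201 negative. The 4 members above the floor on 1 array had to differ by the way they passed, and with them the median was -0.036, beside -0.0092 over all genes compared. The size of the differences was also like that of other genes: their median without regard to sign was 0.145 for the 28 members and 0.154 for the 10011 genes.

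**Figure D1:**
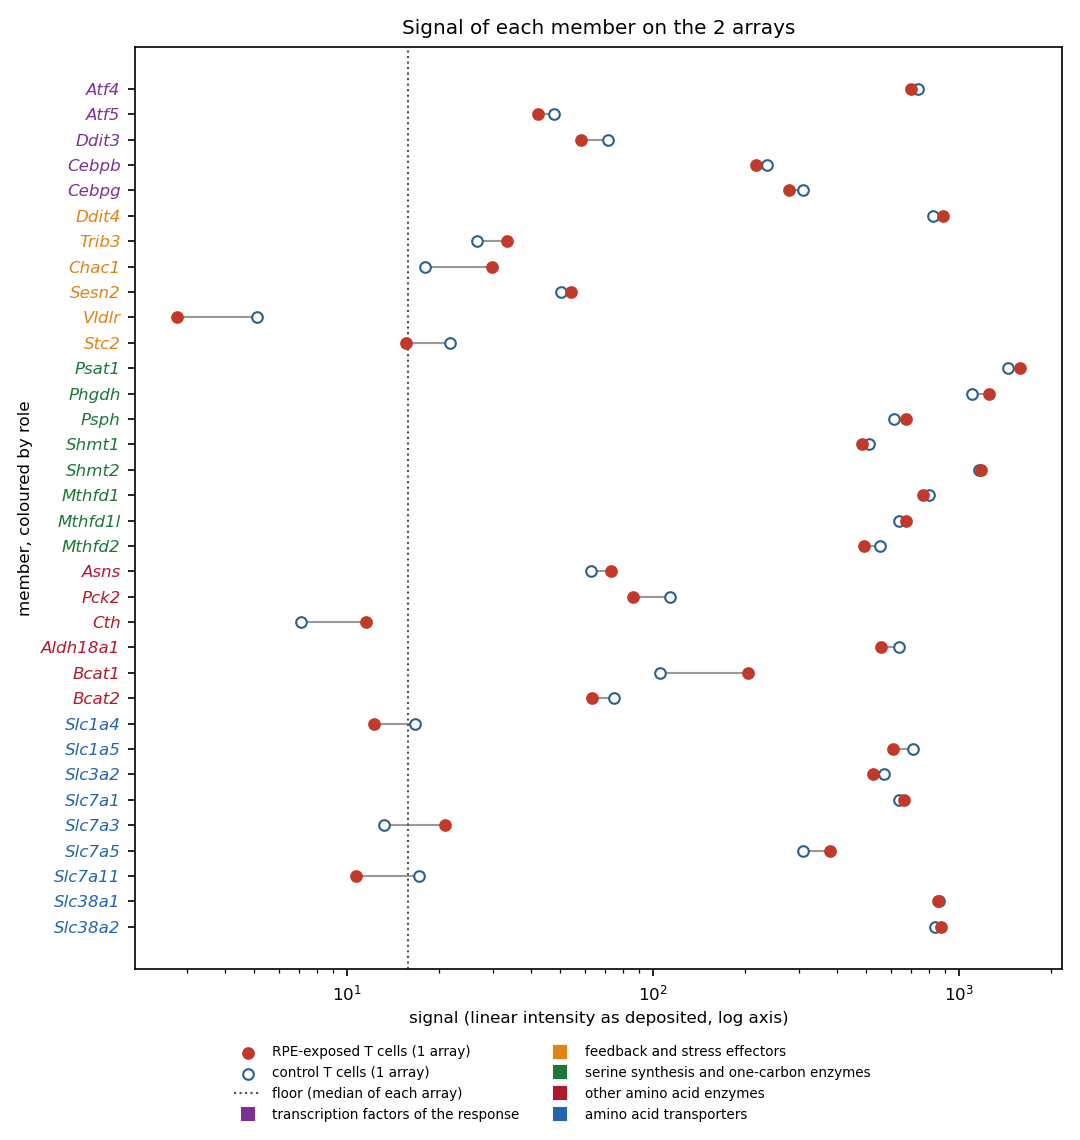
Signal of the probe set that represents each of the 34 members (horizontal log axis, linear intensity as deposited) in RPE-exposed T cells (filled) and control T cells (open), 1 array each, with the members grouped by role down the page and the floor dotted. The 2 points of most members nearly coincide, while those of Bcat1 (205.6 exposed, 106.1 control) stand apart well above the floor.

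Bcat1 encodes the cytosolic branched-chain aminotransferase, which takes the amino group off leucine, isoleucine and valine and is induced when T cells are activated. Its brightest probe set gave 205.6 in RPE-exposed T cells, against 106.1 in control T cells, 1.94-fold higher (log2 difference 0.95). A second probe set gave 107.4 in exposed and 47.7 in control T cells, 2.25-fold higher (1.17). The exposed array was thus higher in both, and the pair averaged 1.06 ± 0.15 (SD over 2 probe sets of the same 2 RNA samples). The remaining, dim probe set read 18.4 on the exposed array and 14.4, under the floor, on the control array, at least 1.16-fold higher. Of the 28 members above the floor on both arrays, Bcat1 was the one whose difference lay outside the central 95% of genes of like level, here -0.54 to 0.55. The same holds for 520 of the 10011 genes, about the share that such a range leaves out. Counted from the highest difference, it had rank 44 of 10011. Both bright probe sets have names ending in a, for probes that match several transcripts of 1 gene, and without such probe sets Bcat1 rested on the dim one, with a difference of 0.21.

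Bcat2, the mitochondrial isoform of the same enzyme, did not share this difference. Its single probe set gave 63.2 in exposed and 74.7 in control T cells (-0.24), against a like-level range of -0.73 to 0.66. The log2 difference of Bcat1 exceeded that of Bcat2 by 1.20. Genes of downstream branched-chain amino acid breakdown and its regulation, in a list of 11 all above the floor, had a median of -0.24, with 8 negative and 3 positive. In that list Acadsb, a mitochondrial acyl-CoA dehydrogenase, was 1.59-fold lower (35.7 and 56.6), and no gene was 1.5-fold higher. Bckdk, the kinase that switches the branched-chain ketoacid dehydrogenase off, gave 0.30 (157.8 and 128.3), and the dehydrogenase subunit Bckdhb -0.42 (78.2 and 104.7). Each lay inside its like-level range, -0.54 to 0.55 for Bckdk and -0.71 to 0.58 for Bckdhb. The subunits Bckdha and Dbt gave -0.24 and -0.14.

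Chac1, an ATF4 and CHOP target that degrades glutathione, was the other member past 1.5-fold. Its single probe set gave 29.9 in RPE-exposed and 18 in control T cells, 1.66-fold higher (0.73). Both signals lay close to the floor, and the difference was inside the like-level range of -0.95 to 0.85. It was 0.43 with an offset of 16 added to each signal.

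**Figure D2:**
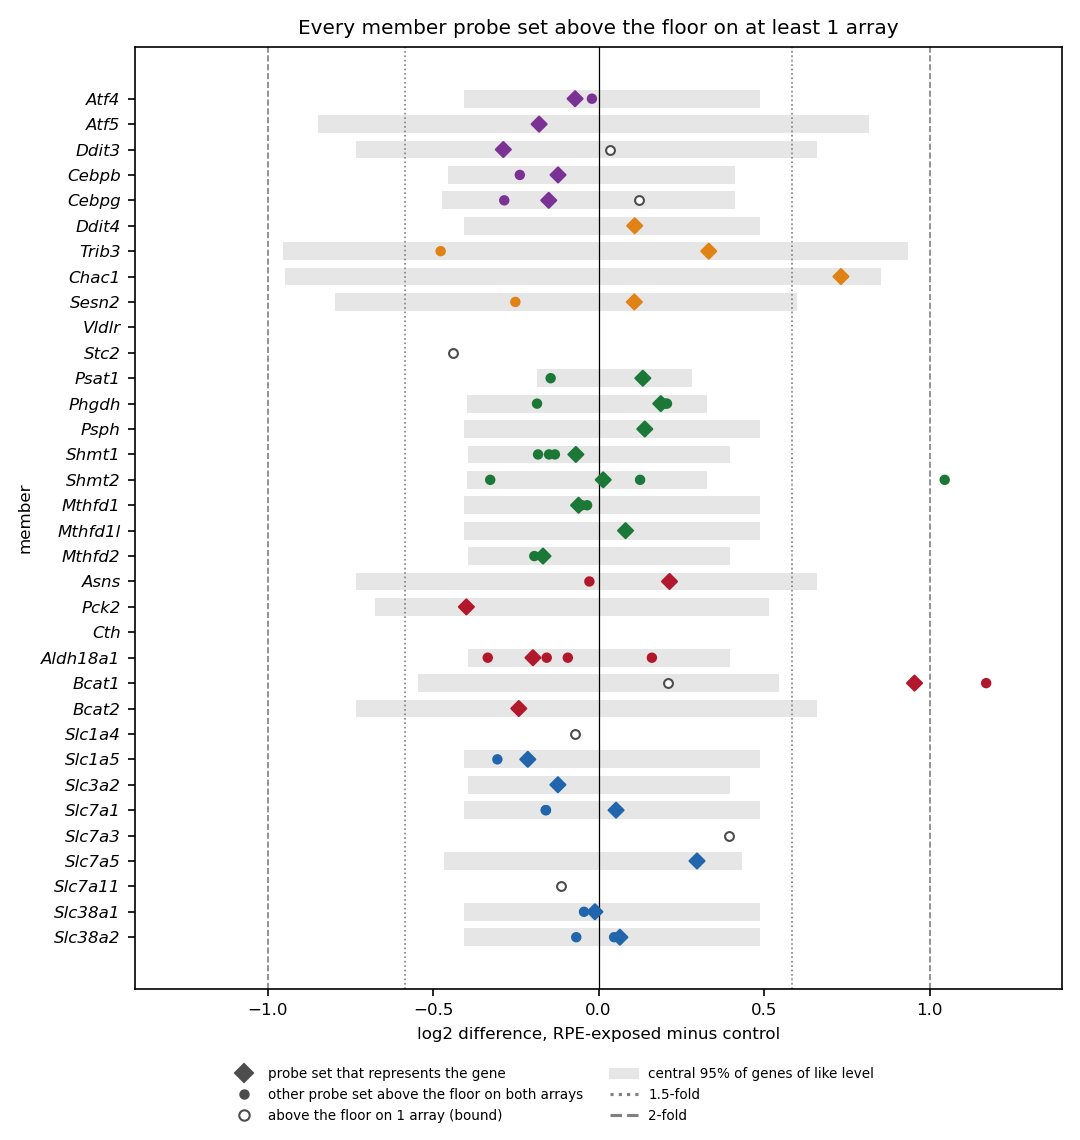
Log2 difference, RPE-exposed minus control, of every member probe set past the floor of at least 1 array (horizontal axis) for each of the 34 members (vertical axis). Diamonds are the probe sets that represent the genes, filled circles other probe sets past both floors, open circles bounds, and grey bars the central 95% of genes of like level; both filled Bcat1 points lie to the right of its bar, at 0.95 and 1.17, and 1 of the 4 Shmt2 probe sets lies at 1.05 apart from the others.

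The promoters of the genes past 1.5-fold are shown because ATF4 with its C/EBP partners acts through a short element, the amino acid response element, whose core is written TGATGNAA here; Asns, the textbook gene of that element, is shown with them. Promoter windows came from RefSeq (build GRCm38.p6) and were matched by symbol for 30 of the 35 genes; the search covered 250 bases before and 50 after each start site, on both strands. The 250 bases before the start are printed 5′ to 3′ on the gene's strand, with the core in capitals where these letters occur.
Bcat1, chr6:145048813-145049062, minus strand: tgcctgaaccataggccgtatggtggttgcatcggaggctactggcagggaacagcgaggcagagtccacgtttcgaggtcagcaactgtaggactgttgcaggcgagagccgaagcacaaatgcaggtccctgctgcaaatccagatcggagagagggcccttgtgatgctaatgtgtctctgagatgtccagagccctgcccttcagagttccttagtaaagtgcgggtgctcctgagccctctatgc
Bcat1, chr6:145076158-145076407, minus strand: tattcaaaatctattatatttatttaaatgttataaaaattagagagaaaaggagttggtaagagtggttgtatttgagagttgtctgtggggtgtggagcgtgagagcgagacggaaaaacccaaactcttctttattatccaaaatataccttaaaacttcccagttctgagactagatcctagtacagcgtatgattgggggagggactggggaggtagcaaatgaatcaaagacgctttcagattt
Chac1, chr2:119350992-119351241, plus strand: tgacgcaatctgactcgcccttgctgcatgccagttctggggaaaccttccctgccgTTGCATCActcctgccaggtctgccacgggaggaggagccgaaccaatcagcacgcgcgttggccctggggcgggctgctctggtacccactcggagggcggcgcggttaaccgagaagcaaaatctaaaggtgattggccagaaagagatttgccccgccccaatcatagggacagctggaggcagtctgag
Asns, chr6:7693210-7693459, minus strand: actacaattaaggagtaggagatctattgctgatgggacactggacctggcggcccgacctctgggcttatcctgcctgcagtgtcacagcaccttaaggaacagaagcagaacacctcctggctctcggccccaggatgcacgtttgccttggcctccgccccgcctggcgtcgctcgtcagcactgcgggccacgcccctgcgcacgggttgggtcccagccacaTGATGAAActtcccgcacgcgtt

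The core letters occurred in the windows of 8 of the 30 matched genes (26.7%), Asns, Chac1, Pck2, Pycr1, Slc1a4, Slc7a11, Trib3 and Vldlr, beside 4.51% of the 27025 genes with a window. The members were listed as ATF4 targets in part, so this share is no independent result. In Chac1 the match lay 193 bases before the start site and in Asns 23 bases before it. Neither Bcat1 window held these letters, which says no more than that. Genes with the core showed no common direction on the arrays. Chac1 was higher as given above, Trib3 and Asns gave 0.33 and 0.21, Pck2 gave -0.40, Slc7a11 and Slc1a4 were above the floor in control T cells alone, and Vldlr on neither array. The cAMP response element, TGACGTCA, occurred in none of the 30 genes and in 2.03% of all genes, and the E-box CACGTG in 1 of 30, Aldh18a1, and in 8.09%. No member window held more than 1 kind of these 3 motifs, so none overlapped.

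The transcription factors of the response were a little lower in RPE-exposed T cells in all 5 cases by the probe sets that represent them, each within its like-level range. Atf4 gave 700.7 in exposed and 736.1 in control T cells (-0.07), and its second bright probe set 291.2 and 295.3 (-0.02). Ddit3, which encodes the pro-apoptotic factor CHOP, gave 58.4 and 71.3 (-0.29, like-level range -0.73 to 0.66). Both genes thus differed little between the arrays. Atf5, a relative of Atf4 that acts in the mitochondrial stress response, gave 42.2 and 47.8 (-0.18). Cebpb gave 217.6 in exposed and 236.9 in control T cells (-0.12), and Cebpg, a dimer partner of ATF4, 278.8 and 309.5 (-0.15). The second probe sets past both floors of Cebpb and Cebpg were lower as well, and the gene means over 2 such probe sets each were -0.18 ± 0.08 and -0.22 ± 0.10 (SD). Dim probe sets of Cebpg and Ddit3 went the other way: Cebpg had 1 at 17.3 in exposed T cells and under the floor in control T cells (12.2), and Ddit3 had 1 at 16.3 and under the floor (14). The median of the 5 factors was -0.15.

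The feedback and stress effectors differed in direction. Ddit4, an mTORC1 inhibitor induced by stress and glucocorticoids, gave 892.4 in RPE-exposed and 827.5 in control T cells (0.11). Sesn2, a leucine sensor that restrains mTORC1, gave 54.1 and 50.2 (0.11), but its other probe set gave 29.4 and 35 (-0.25). Trib3, a pseudokinase that dampens the ATF4 response, gave 33.5 and 26.6 (0.33) by 1 probe set and 17.6 and 24.5 (-0.48) by the other, so the gene has no settled direction. Stc2, a secreted glycoprotein, was under the floor in exposed T cells (15.6) and at 21.7 in control T cells, at least 1.36-fold lower. Vldlr, a lipoprotein receptor, was not above the floor in any of its 6 probe sets, the highest signal being 7.3.

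The serine and one-carbon enzymes were well above the floor in both samples and differed little. In the route from glycolysis to serine, Psat1 gave 1585.4 in RPE-exposed and 1445.2 in control T cells (0.13), Phgdh 1259.0 and 1105.3 (0.19), and Psph 675.1 and 612.9 (0.14). All were slightly higher in exposed T cells by the probe sets that represent them. The second probe set of Psat1 gave the opposite sign, 837.6 in exposed and 926.1 in control T cells, as did 1 of 4 for Phgdh (459.1 and 522.3). The serine hydroxymethyltransferases, which move a carbon unit from serine to folate, gave 484.0 in exposed and 507.6 in control T cells for the cytosolic Shmt1 (-0.07), lower in all 4 probe sets, and 1180.4 and 1169.1 for the mitochondrial Shmt2 (0.01). A further Shmt2 probe set gave 99.7 in exposed and 48.3 in control T cells, and the others 900.4 and 825.5, and 93.0 and 116.7. The 4 averaged 0.21 ± 0.59 (SD). All but the one at 900.4 and 825.5 have names ending in x, for probes that may match other sequences, as do all 4 of Phgdh. The folate enzymes lay just as close. Mthfd1 of the cytosol gave 767.2 in exposed and 800.1 in control T cells (-0.06), Mthfd1l, the mitochondrial formate producer, 674.7 and 637.7 (0.08), and Mthfd2, the mitochondrial enzyme that T cells induce on activation, 492.1 and 552.9 (-0.17). Both Mthfd2 probe sets were lower, at -0.18 ± 0.02 (SD). The 8 genes had a median of 0.05 and ran from -0.17 to 0.19.

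The remaining enzymes had small differences apart from Bcat1. Asns, which makes asparagine, gave 73.2 in RPE-exposed and 63.1 in control T cells (0.21), and its second probe set 56.3 and 57.4 (-0.03). Pck2, the mitochondrial phosphoenolpyruvate carboxykinase, gave 86.5 and 114.1, 1.32-fold lower (-0.40, like-level range -0.68 to 0.52). Aldh18a1, which starts proline synthesis from glutamate, gave 557.8 and 640.0 (-0.20), lower in 4 of its 5 probe sets. Cth, which makes cysteine from cystathionine, was under the floor on both arrays (11.6 and 7.1).

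Among the transporters, the large neutral amino acid carrier gave the widest difference of those above the floor on both arrays. Slc7a5, its light chain and the main leucine importer of activated T cells, gave 379.7 in RPE-exposed and 309.0 in control T cells, 1.23-fold higher (0.30, like-level range -0.47 to 0.43, 1 probe set). Slc3a2, its heavy chain, gave 523.6 and 570.2 (-0.12). The glutamine carrier Slc1a5 gave 612.3 and 710.2 (-0.21), lower in both probe sets. The cationic amino acid carrier Slc7a1 gave 663.1 and 639.3 (0.05), with the other 2 probe sets lower. The sodium-coupled glutamine carriers were level, at 857.9 in exposed and 864.6 in control T cells for Slc38a1 (-0.01) and 877.9 and 839.6 for Slc38a2 (0.06). The other 3 transporters were near the floor. Slc7a3, a second cationic carrier, gave 20.9 in exposed T cells and was under the floor in control T cells (13.3), at least 1.31-fold higher. The cystine importer Slc7a11 was under the floor in exposed T cells (10.7) and at 17.3 in control T cells, at least 1.08-fold lower, and the neutral carrier Slc1a4 gave 12.3 and 16.8, at least 1.05-fold lower.

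Of the 79 member probe sets, 58 passed both floors, 7 passed 1 and 14 passed none. Of the 58, 54 were within 1.5-fold, 4 were at least 1.5-fold higher and none was 1.5-fold lower. The 4 were the pair of Bcat1, that of Chac1, and 1 of Shmt2. The same count was not made over all probe sets, so these numbers are not a result about the members. Of 18 members with 2 or more such probe sets, 9 had probe sets of opposite sign, so small differences of a single probe set do not fix a gene's direction.

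**Figure D3:**
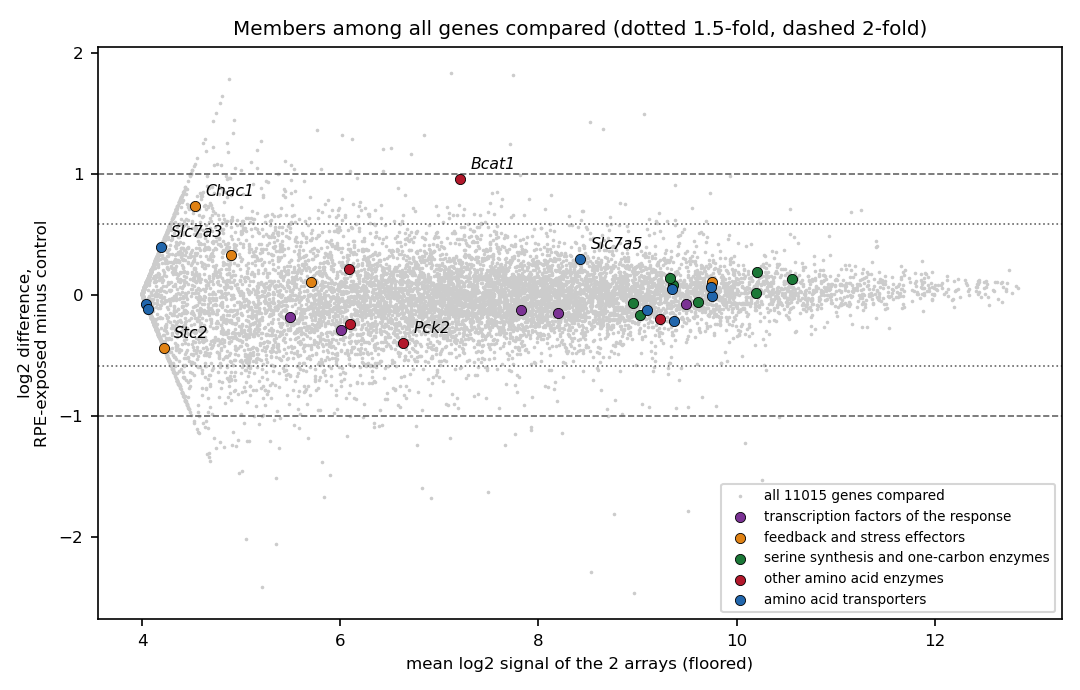
Log2 difference, RPE-exposed minus control (vertical axis), against mean log2 signal (horizontal axis) for all 11015 genes compared (grey) and for the 32 members compared (coloured by role), with lines at 1.5-fold and 2-fold. The members lie in the body of the grey cloud apart from Bcat1 at 0.95, and Chac1 and Slc7a3 sit at the dim edge, where the cloud is wide.

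The wider pathway was read from 9 lists of related genes. Cytosolic aminoacyl-tRNA synthetases, which load amino acids onto transfer RNA and are ATF4 targets in many cells, were alike on both arrays. None of 19 was 1.5-fold different, and the median was 0.03, with 11 positive and 8 negative. The highest was the alanyl enzyme Aars (473.1 in exposed, 345.8 in control T cells, 0.45, like-level range -0.42 to 0.44). The lowest was the glutamyl-prolyl enzyme Eprs (456.9 and 532.9, -0.22). The 2 Aars probe sets past both floors had an SD of 0.20. Of 15 genes for eIF2 subunits, its kinases, exchange factor and phosphatase, 14 were within 1.5-fold (median 0.07). Eif2ak2, the kinase activated by double-stranded RNA and an interferon-induced gene, gave 189.7 and 135.2 (0.49), and Eif2ak4, the kinase that senses uncharged transfer RNA, 61.3 and 66.0 (-0.11). Its coactivator Gcn1 was 1.90-fold lower by its brightest probe set (70.5 and 133.6), but its 4 probe sets past both floors had an SD of 0.59.

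Other ATF4 and CHOP targets had a median of -0.13 over 15 genes, 11 of them negative. Gadd45a, a growth arrest gene, was 1.69-fold lower (17.2 in exposed, 29.0 in control T cells), and Gpt2, the mitochondrial alanine aminotransferase, 1.55-fold higher (32.0 and 20.6), both near the floor. The ATF6 and XBP1 arms of the unfolded protein response had no gene of 18 past 1.5-fold (median 0.04), with Sdf2l1, an endoplasmic reticulum chaperone cofactor, at 0.35 and Xbp1, the factor of that arm, at -0.28 (2709.2 and 3278.4, like-level range -0.19 to 0.28). The 4 Xbp1 probe sets past both floors had an SD of 0.27, about as large as that difference. Xbp1 is also high in plasma cells and B-lineage cells, whose markers were lower as given above. The part of these cells in the Xbp1 value was not tested. Other folate, glycine and methionine cycle genes had none of 13 past 1.5-fold (median -0.05), from Mtrr, which reactivates methionine synthase, at -0.50 to Mat2b, a regulator of S-adenosylmethionine synthesis, at 0.20.

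In the list of other amino acid transporters Slc16a10, the aromatic amino acid carrier, was 2.14-fold higher (50.3 in exposed, 23.5 in control T cells, 1.10, like-level range -0.95 to 0.94), on 1 probe set above the floor on both arrays; the other 12 above both floors were within 1.5-fold (median of the list -0.0047), down to Slc43a2, a neutral amino acid carrier, at -0.42 (47.1 and 63.2). Slc38a3, a glutamine carrier, gave 18.1 in exposed T cells and was under the floor in control T cells (10.3), at least 1.14-fold higher. Of the 24 genes 10 were above the floor on neither array. Glutamine, arginine, proline and polyamine enzymes had a median of -0.09 over 16 genes, with Gpt2 the 1 gene past 1.5-fold the lowest being Gpt, the cytosolic alanine aminotransferase, at -0.40 (47.8 and 62.9). Genes of amino acid sensing by mTORC1 had a median of -0.09 over 25 genes. Rragd, which encodes a Rag GTPase of that pathway, was 2.39-fold lower (17.3 in exposed, 41.4 in control T cells, -1.26), below its like-level range of -0.95 to 0.85 but near the floor on the exposed array, and the other 24 were within 1.5-fold, up to Mlst8, an mTORC1 subunit, at 0.38 (71.8 and 55.2). The shares past 1.5-fold in these lists are to be read against the 3.11% and 3.81% of all genes given above. Those shares include dim genes and bounds. Among 6334 genes with a mean signal of 100 or more, 67 were 1.5-fold higher and 97 lower. For lists of mostly bright genes, such as the synthetases, that is the nearer measure, and no gene past 1.5-fold there is nothing unusual.

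**Figure D4:**
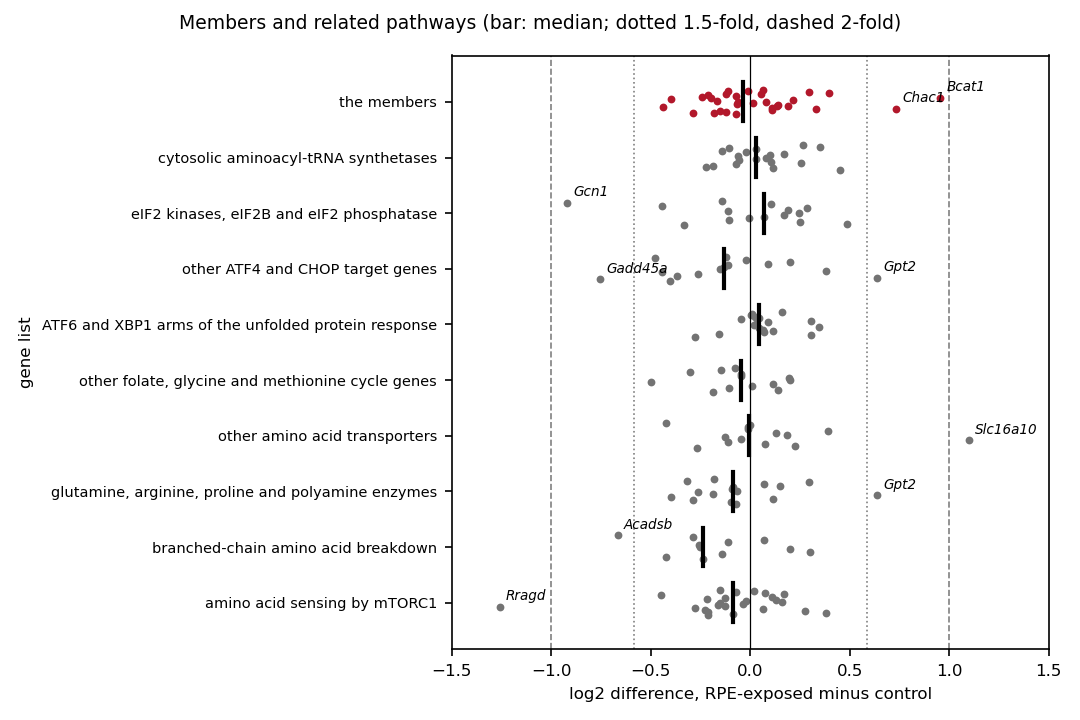
Log2 difference, RPE-exposed minus control (horizontal axis), of each gene compared among the 32 members (top) and in each of the 9 related lists (below), with a bar at each median and lines at 1.5-fold and 2-fold. The medians lie between -0.24 and 0.07, and the genes past 1.5-fold are named.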

How the data were processed

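Total RNA was extracted with Trizol and RNeasy columns, converted to cDNA and transcribed into biotin-labelled cRNA for Affymetrix arrays, per the labels' protocols. The deposited values are linear intensities, with 1 value on each array for a probe set, that is, several short probes read together. The mean without the lowest and highest 2% was about 100.0 on each array, so the deposited intensities were used without further scaling. The software that summarized the probes is not given in the sources used here. Gene names are those of the platform annotation.

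From the intensities, log2 differences were computed in numpy 2.4.6 and pandas 2.3.3 under Python 3.11.15, with matplotlib 3.10.9 for plots. The floor was each array's median over the probe sets left after 64 manufacturer's controls of 45101 were removed. The brightest probe set by mean log2 signal represented a gene. A gene above the floor on 1 array has a bound, its signal over the other array's floor. Genes were counted at 1.5-fold and 2-fold; the like-level range is the central 95% of differences in 1 of 20 classes of mean level. With 1 array a group no test was possible and precision is limited by that number. The steps were tested on simulated data in which only genes with a mean signal of 100 or more were changed, with recovery counted past 2-fold. Calls at 1.5-fold and genes near the floor were not covered by that test. The members, lists and rules were chosen with earlier results of these data known. All members are named, and in each related list the genes past 1.5-fold or, with fewer than 2 of them, the highest and lowest. Bckdha, Bckdhb, Dbt, Eif2ak4, Slc38a3, Nfil3, Sqstm1 and Herpud1 were added after their values were seen, as were some single marker genes. Promoter sequences are those of RefSeq, GRCm38.p6. The 9 alternatives varied the floor, an offset, the scaling and the use of probe sets.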

Additional observations from a re-analysis of the deposited data

How the results depend on the processing

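The direction of Bcat1 was positive in all 9 alternatives, from 0.21 to 0.98, and it was at least 1.5-fold higher in 8 of them. The exception drops every probe set with an x, s or a suffix, which leaves its dim one. Changes of the floor could not move its brightest probe set, which stayed at 0.95. Chac1 was past 1.5-fold in 7 of the 8 alternatives that measured it, the exception being an offset of 16 (0.43). Most of these could not change it. Its single probe set lay above both floors, so a lower floor, no floor or another use of probe sets left it at 0.73. The 75th-percentile floor left Chac1 out because its signals were too low. The number of members at least 1.5-fold higher was 2 in the main setting, 4 under a 25th-percentile floor and 4 with no floor, and 1 each under a 75th-percentile floor, with the offset, and without the suffixed probe sets. The number at least 1.5-fold lower was 0 in the main setting, 1 under the 25th-percentile floor and 2 with no floor. The members added by a lower floor or none, Cth and Slc7a3 higher and Slc7a11 and Vldlr lower, have signals of at most 20.9, and over all genes the main counts of 343 higher and 420 lower became 1635 and 1515 with the lower floor and 2799 and 2596 with none. The 75th-percentile floor gave 64 and 94, the offset 225 and 285, and averaging all probe sets 213 and 282. At 2-fold the main counts of 48 higher and 69 lower became 658 and 577 with the lower floor, 1730 and 1583 with none, 6 and 16 with the higher floor, 33 and 38 with the offset, and 23 and 54 with averaging; no member was 2-fold different under any of the 9. Signs of Trib3, Sesn2, Psat1, Shmt2, Slc7a1 and Slc38a1, all within 1.5-fold, changed in at least 1 alternative. Of 784 values set against the main setting 680 stayed within the limit set for them, 104 moved further, and no value past 1.5-fold changed sign. The limit for a single gene was the pooled SD of probe sets. For a median it was that SD divided by the square root of the number of genes, and for a count 1.5 times. Of the genes past 1.5-fold in related lists, Slc16a10 ranged from 0.28 to 1.13, Gpt2 from 0.16 to 0.66, Gcn1 from -0.92 to -0.16, Rragd from -1.26 to -0.41, Gadd45a from -0.75 to -0.44 and Acadsb from -0.66 to -0.49, so each fell short of 1.5-fold in at least 1 alternative. Low signal near the floor limits Chac1, Stc2, Slc7a3, Slc7a11 and Slc1a4. No paired analysis was possible because each group has 1 array.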

Other observations

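A pair of probe sets annotated to Phgdh together with a second symbol were left out of the values above. The one shared with Gm8096 gave 812.1 in RPE-exposed and 734.9 in control T cells, and the one shared with Gm6756 gave 333.4 and 334.5.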
